A study of Arabidopsis thaliana with 24 samples.

Results

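The 60 genes described here encode proteins of the small (40S) subunit of the cytosolic ribosome of Arabidopsis thaliana. They were taken as a list of loci, among the 37184 loci of every count table, and they stand for 29 proteins from Sa to S29. Of the 60, 57 had enough counts to be tested in the fit across all genes. The reference annotation names a ribosomal protein in the product of 54 of the 60, and the other 6 carry a domain name only. Transcript ends were counted in 24 libraries of 6 genotypes, with 4 libraries of each, from soil-grown plants 21 days old kept in long days.

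The wild type was Col-0, and dxo1-2 is a mutant of DXO1, an enzyme of the group that removes caps and other unusual 5' ends from RNA. The other 4 genotypes all carry dxo1-2 together with a DXO1 transgene under the 35S promoter, which is active in most tissues and is not the promoter of DXO1. The full-length active line has the genotype 35S::DXO1(wt) dxo1-2, and the full-length substituted line carries the catalytic substitutions E394A and D396A. Both truncated lines lack 194 residues at the N-terminus, and of these the truncated active line has no substitution while the truncated substituted line has E394A and D396A as well. The labels name 1 line for each construct and do not say whether libraries came from separate plants or pools. The p-values below therefore measure the spread between these libraries, which may be technical. The design asks how the mutant differs from the wild type, and which form of the protein removes that difference.

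A ribosome reads messenger RNA with its small subunit and joins amino acids with its large subunit. In plants nearly every ribosomal protein is encoded by a small family of genes on different chromosomes, so that the paralogs of a protein can contribute to the pool in different amounts. The promoters of many of these genes carry a short telomere-like element called the telo box and GC-rich elements called site II. Positions of the proteins are given below as they are known from ribosome structures of yeast and animals.

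Library totals ran from 1270033 to 3490594 counts. DXO1 itself (AT4G17620) was at 15.6 ± 2.97 CPM, a count scaled to the size of its library, in Col-0 and at 3.36 ± 0.645 in dxo1-2 (SD, n = 4). The full-length lines had 12.1 ± 1.24 and 18.4 ± 2.43 CPM and the truncated lines 4.45 ± 1.77 and 5.14 ± 1.71, active before substituted. DXO1 ranged from 2.67 to 4.23 CPM in dxo1-2, between 1.98 and 5.99 for truncated active and between 3.12 and 7.04 for truncated substituted libraries, which overlap, whereas both full-length lines lay higher, at 10.9 CPM or more. The truncated lines are therefore so named by their labels, and the DXO1 count did not set them apart from dxo1-2. Since a 3' count cannot tell the mutant's own transcript from that of the transgene, these values check the labels only in part. The leaf genes of the rubisco small subunit, rubisco activase and light-harvesting proteins summed to between 40377 and 78225 CPM over all libraries, whereas the 4 root hair markers had no count in any library.

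The upstream windows of 3 pairs of paralogs are shown first, because the members of these pairs moved by different amounts. Each window holds the 250 bases before the annotated gene start in assembly TAIR10.1, read 5' to 3' on the strand of the gene. They lie at chr2:15649472-15649721 on the minus strand for AT2G37270 and chr3:3779546-3779795 on the minus strand for AT3G11940, which both encode S5. The windows of the S12 genes lie at chr1:5471066-5471315 on the plus strand for AT1G15930 and at chr2:13640432-13640681 on the minus strand for AT2G32060. Those of the S20 genes lie at chr3:16472410-16472659 for AT3G45030 and at chr5:25022565-25022814 for AT5G62300, both on the minus strand. Capitals mark the telo box AAACCCTA and the site II letters TGGGCC or TGGGCT, each searched on both strands.
S5 AT2G37270: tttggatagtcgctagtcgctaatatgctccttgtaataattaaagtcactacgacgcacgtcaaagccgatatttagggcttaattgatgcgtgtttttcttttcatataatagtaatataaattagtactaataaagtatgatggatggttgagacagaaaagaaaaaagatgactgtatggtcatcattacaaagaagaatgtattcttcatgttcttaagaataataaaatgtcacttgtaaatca
S5 AT3G11940: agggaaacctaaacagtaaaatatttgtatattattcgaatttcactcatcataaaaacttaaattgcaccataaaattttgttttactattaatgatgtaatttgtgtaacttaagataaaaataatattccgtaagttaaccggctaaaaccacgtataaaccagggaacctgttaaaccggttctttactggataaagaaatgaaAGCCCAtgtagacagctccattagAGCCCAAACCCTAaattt
S12 AT1G15930: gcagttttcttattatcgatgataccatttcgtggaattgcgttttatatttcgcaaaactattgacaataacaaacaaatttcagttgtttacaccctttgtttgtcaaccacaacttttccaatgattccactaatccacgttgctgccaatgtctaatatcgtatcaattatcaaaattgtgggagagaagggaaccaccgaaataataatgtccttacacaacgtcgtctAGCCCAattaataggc
S12 AT2G32060: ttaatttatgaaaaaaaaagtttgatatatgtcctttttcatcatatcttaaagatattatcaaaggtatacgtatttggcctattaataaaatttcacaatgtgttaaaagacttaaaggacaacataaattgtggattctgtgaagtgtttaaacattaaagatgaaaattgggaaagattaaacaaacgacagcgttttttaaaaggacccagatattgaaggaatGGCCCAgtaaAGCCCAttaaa
S20 AT3G45030: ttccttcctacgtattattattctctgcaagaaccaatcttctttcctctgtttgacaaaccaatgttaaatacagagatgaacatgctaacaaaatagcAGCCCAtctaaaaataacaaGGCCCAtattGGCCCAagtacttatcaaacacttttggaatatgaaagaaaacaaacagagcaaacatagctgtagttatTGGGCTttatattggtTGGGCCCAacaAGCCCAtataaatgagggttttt
S20 AT5G62300: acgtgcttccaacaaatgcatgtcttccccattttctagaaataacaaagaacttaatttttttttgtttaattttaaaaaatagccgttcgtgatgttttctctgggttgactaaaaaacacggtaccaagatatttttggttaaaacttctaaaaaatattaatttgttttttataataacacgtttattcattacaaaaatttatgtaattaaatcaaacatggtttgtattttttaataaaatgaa

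Within each pair the windows held different motifs. The S5 gene AT3G11940 had 1 telo box, whose last base lay 6 bases upstream of the gene start and which overlapped the nearer of its 2 site II motifs, whereas AT2G37270 had neither motif. Of the S12 genes, AT1G15930 had 1 site II motif and AT2G32060 had 2. The S20 gene AT3G45030 had 7 site II motifs, 2 of which overlap on opposite strands, and AT5G62300 had 0. Of the S2 genes, whose windows are not shown, AT1G58380 had neither motif and AT2G41840 had 2 site II motifs. Over the 60 genes, 39 windows held a site II motif (65%), 10 held a telo box (16.7%) and 7 held both (11.7%). The same letters were found in 19.2%, 4.49% and 1.36% of the windows of all 27443 protein-coding genes. A match of letters describes the sequence and does not show that a factor binds there.

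In the mutant, small-subunit genes rose together. Of the 57 genes tested, 54 were higher in dxo1-2 than in Col-0 at an adjusted p under 0.05 (quasi-likelihood test of edgeR, Benjamini-Hochberg adjustment over all 13592 genes tested). Among all genes tested 22.6% were called, 14.7% as higher and 7.93% as lower. The median log2 fold change of the 57 genes was 1.20, with a range from 0.34 to 2.63, against a median of 0.02 for all genes tested. In 51 of the 57 every dxo1-2 library lay above every Col-0 library, which held for 15.6% of all genes tested. In whole plants, a change in the number of cells of a type and a change in RNA per cell cannot be told apart.

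As a share of the library, counts on the 60 genes came to 0.638%, 0.822%, 0.573% and 0.793% in the Col-0 libraries and to 1.62%, 1.73%, 1.79% and 1.66% in the dxo1-2 libraries. The groups did not overlap, and the mutant's share was 2.40 times that of the wild type. The means were 0.706% ± 0.120 and 1.70% ± 0.0738 (SD, n = 4; two-sided exact permutation test, p = 0.0286, the smallest that 4 against 4 libraries can give). Adjusted over 13 comparisons of groups this p became 0.0531.

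**Figure D1:**
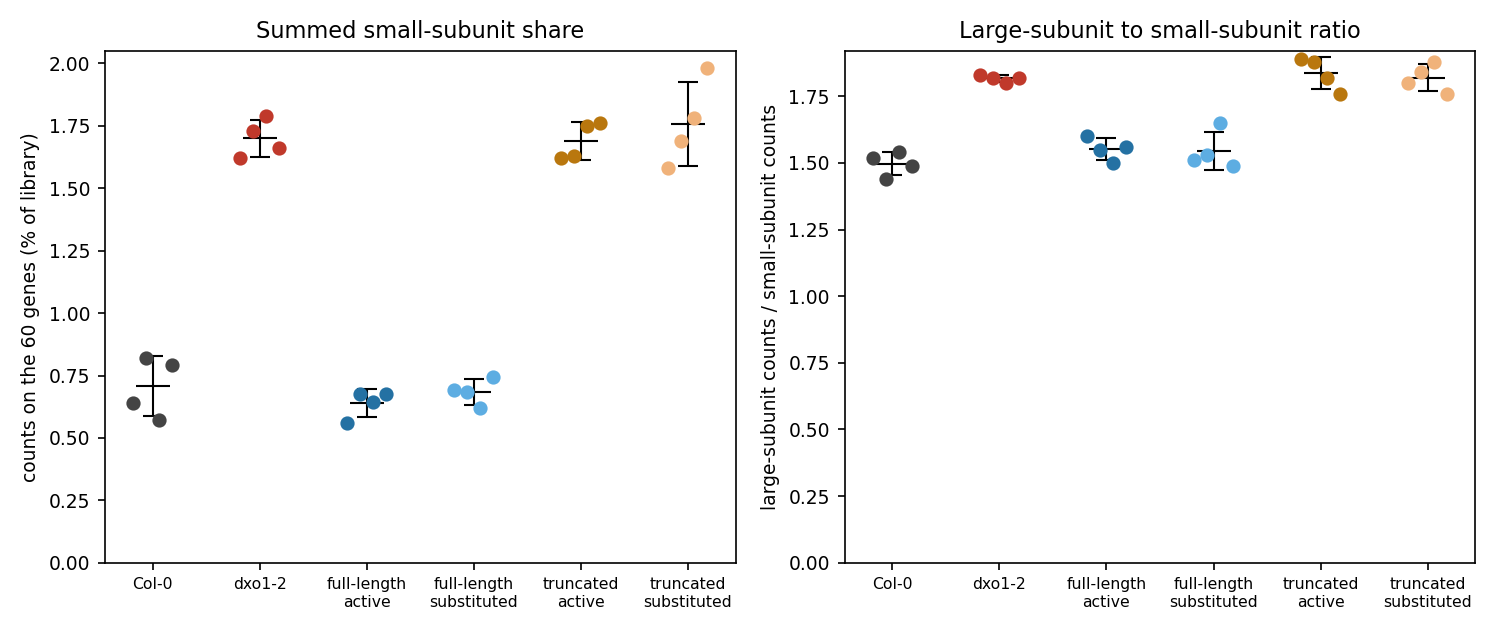
Left, counts on the 60 small-subunit genes as a percentage of each library; right, counts on large-subunit genes divided by counts on the 60 genes. Each point is 1 library, the long bar is the mean and the short bars are 1 SD of 4 libraries; dxo1-2 and both truncated lines sit above Col-0 and both full-length lines in both panels, with no overlap.

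Most of these genes were deeply counted. Counts in CPM stand for transcript ends and were not divided by gene length. The highest means over the 24 libraries belonged to AT5G15200 (S9, at the channel where messenger RNA enters) with 562 CPM, AT5G20290 (S8, in the body) with 552 CPM and AT5G02960 (S23, at the decoding centre) with 546 CPM. They were followed by AT1G04270 (S15, in the head) with 500 CPM and AT1G15930 (S12) with 455 CPM. All 5 rose in the mutant, by 1.05, 1.15, 1.42, 0.95 and 2.18 on the log2 scale.

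The largest rise was that of AT1G58380, a gene of S2, which lines the channel where messenger RNA enters. Its CPM values were 8.51, 5.29, 5.45 and 13.1 in Col-0 and 43.4, 57.3, 51.5 and 55.0 in dxo1-2. Every mutant library was more than 3 times the highest wild-type library. The log2 fold change was 2.63 (SE 0.27, edgeR adjusted p 4.60e-08). AT1G58380 has near-identical copies (AT1G59359, AT1G58684 and AT1G58983), so reads may have been split between them and its value is uncertain. The other S2 gene of the list, AT2G41840, rose by 1.27 (SE 0.14, edgeR adjusted p 1.60e-07).

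Proteins of the head of the subunit come next. Among 26 tested genes of head proteins, 26 were called higher, with a median log2 fold change of 1.16. AT1G15930, a gene of S12 in the beak of the head, stood at 137, 200, 129 and 214 CPM in Col-0 and at 617, 864, 794 and 808 CPM in dxo1-2. It rose by 2.18 on the log2 scale (SE 0.18, edgeR adjusted p 2.34e-09), with no overlap of the groups. AT3G02080, a gene of S19, which is needed in yeast and human cells for processing of the small-subunit ribosomal RNA, had 131, 178, 101 and 179 CPM in Col-0. Its mutant values of 416, 587, 580 and 575 CPM were all higher, and it rose by 1.87 (SE 0.19, edgeR adjusted p 6.46e-08). AT3G45030 (S20, in the beak) rose by 1.65, and AT2G09990 (S16, whose tail reaches transfer RNA) by 1.57.

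Head genes also included several of the smallest changes. AT3G11940, one of the S5 genes, was at 133, 163, 98.1 and 158 CPM in Col-0 and at 231, 196, 223 and 142 CPM in dxo1-2. The lowest mutant library fell within the wild-type range, and the log2 fold change was 0.53 (SE 0.18, edgeR adjusted p 0.0312). Its call was lost without any 1 of Col-0 replicates 1 and 3 and dxo1-2 replicates 1, 2 and 3, where the change was between 0.38 and 0.52 and the adjusted p between 0.0640 and 0.152. It was also lost with no filter on low counts (adjusted p 0.0869), in a fit of only these 2 groups (0.0547) and with the trend on exon length removed (0.272). The S10 genes AT5G52650 and AT4G25740 rose by 0.69 (SE 0.23, edgeR adjusted p 0.0281) and 0.70 (SE 0.24, edgeR adjusted p 0.0312), and both calls were lost when Col-0 replicate 1 or 3, or dxo1-2 replicate 2, 3 or 4, was left out. Without those libraries their changes were between 0.54 and 0.66, with adjusted p between 0.0672 and 0.127, and with the length trend removed the adjusted p was 0.0593 and 0.0603. AT3G53870 (S3, at the entry channel) rose by 0.79, AT5G03850 (S28, near the exit of the messenger RNA channel) by 0.79 and AT4G09800 (S18) by 0.83. The call of AT5G03850 was lost without Col-0 replicate 1 or 3 or dxo1-2 replicate 2 or 4, with changes from 0.63 to 0.70 and adjusted p from 0.0505 to 0.0775.

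Among 31 tested genes of the body and platform, 28 were called higher, with a median log2 fold change of 1.20. The genes with the largest rises there, after AT1G58380, were AT4G30800 (S11) with 1.65, AT3G02560 (S7) with 1.53, AT5G07090 (S4) with 1.51, AT3G60770 (S13) with 1.50 and AT3G52580 (S14) with 1.50. S4, S11 and S13 bind the small-subunit ribosomal RNA, S7 sits in the body, and S14 sits in the platform. AT4G30800 was at 3.02 to 4.18 CPM in Col-0 and at 10.1 to 13.3 CPM in dxo1-2, so that few counts lie behind its value. AT3G60770 had 134, 149, 119 and 137 CPM in Col-0 and 339, 425, 398 and 366 CPM in dxo1-2, a change with an SE of 0.14 (edgeR adjusted p 1.56e-08). Another S14 gene, AT2G36160, rose by 0.80 (SE 0.25, edgeR adjusted p 0.0198), a call that was lost without Col-0 replicate 1 or 3 or dxo1-2 replicate 2, 3 or 4 (0.61 to 0.77, adjusted p 0.0515 to 0.101).

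The 3 tested genes not called all belong to the body. AT1G72370 is the main gene of Sa, a protein at the back of the subunit, and had 161, 207, 124 and 213 CPM in Col-0 and 274, 223, 238 and 152 CPM in dxo1-2. The groups overlapped, and the log2 difference was 0.34 (SE 0.21, edgeR adjusted p 0.286). AT1G07770 (S15a, which binds ribosomal RNA in the body) differed by 0.55 (SE 0.24, edgeR adjusted p 0.102). AT5G10360, a gene of S6, the protein phosphorylated downstream of the TOR kinase, differed by 0.74 (SE 0.28, edgeR adjusted p 0.0551). It had 75.7, 77.9, 83.8 and 87.8 CPM in Col-0 and 203, 125, 130 and 80.3 CPM in dxo1-2. Without dxo1-2 replicate 4 its difference was 0.90, with an adjusted p of 0.0214, and AT5G10360 was then called. AT1G07770 and AT5G10360 were also called in some other settings, among them a fit of only the 2 groups compared, with adjusted p of 0.0436 and 0.0195.

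**Figure D2:**
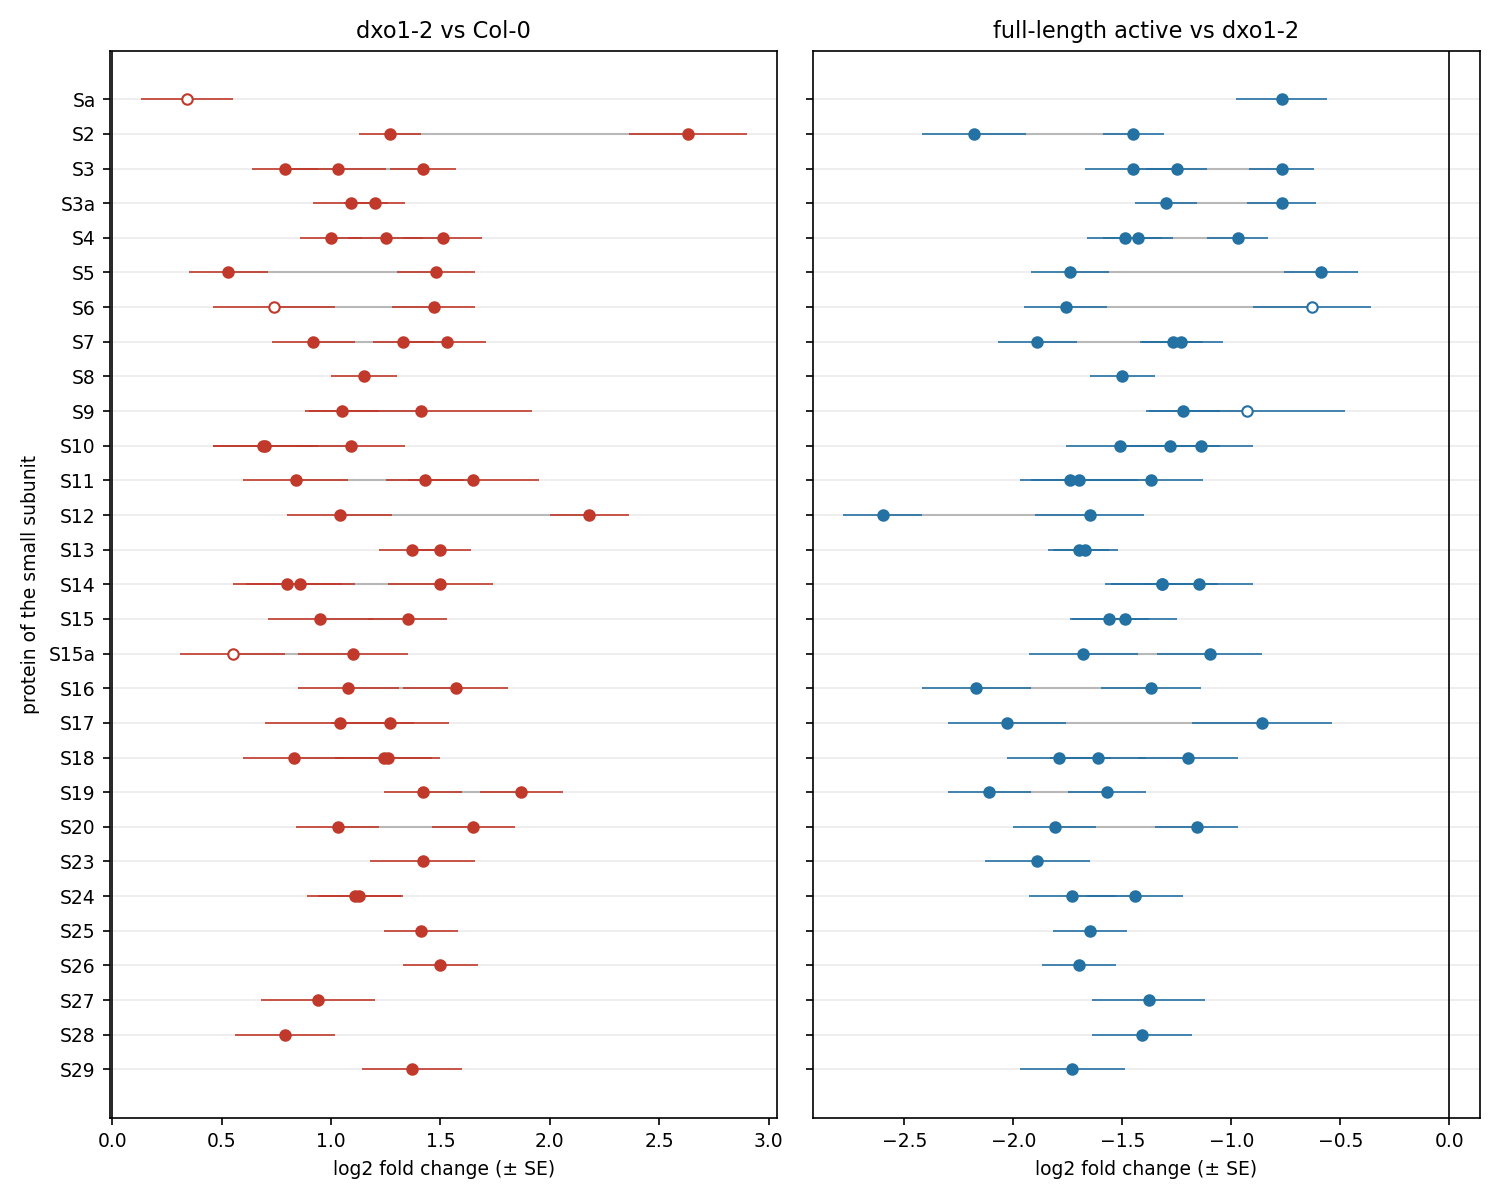
Log2 fold change of each tested gene, 1 row per protein, for dxo1-2 against Col-0 (left) and the full-length active line against dxo1-2 (right). Points are paralogs, bars are 1 SE, and open points were not called; the S2, S5 and S12 rows show paralogs far apart.

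Too few counts were found for 3 genes. AT5G59240, a second gene of S8, summed to 0 counts over the Col-0 libraries and to 16 over the dxo1-2 libraries. A count of 0 allows up to 3 counts, or 0.456 CPM over the group, so no fold is given. AT3G09680 (S23) summed to 0 counts in Col-0 and 2 in dxo1-2. AT3G04770 (Sa) summed to 4 in Col-0 and 11 in dxo1-2.

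For some proteins the paralogs did not contribute to the rise alike. For each of 21 proteins with 2 or more tested genes, the counts on these genes were summed. The percentage of that sum that came from the leading paralog was compared. Genes outside the list of 60, such as AT3G47370 of S20, were left out, so each percentage is a share of the listed genes only. The percentages did not overlap between dxo1-2 and Col-0 for 12 of 21 proteins (57.1%), each with an exact permutation p of 0.0286 and 0.0444 after adjustment over 42 tests. For the full-length active line against dxo1-2 the count was 15 of 21 (71.4%). Between the full-length substituted line and dxo1-2 it was 11 of 21 (52.4%), and for each truncated line 2 of 21 (9.52%), given as counts only. These comparisons share the dxo1-2 libraries. No such count was made for other gene families, so whether it is particular to these proteins was not tested. The median absolute shift was 6.82 percentage points between dxo1-2 and Col-0. In the last 300 bases of the transcripts the longest identical run between listed paralogs was 29 bases, for AT1G34030 and AT4G09800 of S18, and how reads matching several genes were counted is not given in the sources used here.

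S5, at the exit side of the head, showed the largest shift. AT3G11940, the gene named 5A whose promoter is widely used to express transgenes in dividing cells, supplied 61.8%, 64.7%, 61.0% and 60.1% of the S5 counts in Col-0. In dxo1-2 it supplied 53.8%, 43.5%, 47.9% and 36.1%, so that every mutant library was below every wild-type library. The difference was -16.6 points (exact permutation test, p = 0.0286, adjusted p 0.0444). AT2G37270, the gene named 5B, went from 82.3, 89.2, 62.7 and 105 CPM to 198, 255, 242 and 252 CPM, a rise of 1.48 (SE 0.18, edgeR adjusted p 1.05e-06). The share of AT3G11940 was 62.4% to 67.9% in the full-length active line, 62.5% to 73.9% in the full-length substituted line, 40.7% to 56.1% in the truncated active line and 29.2% to 45.5% in the truncated substituted line. Markers of dividing cells, listed as 16 genes, overlapped between the groups. They summed to 39.7 to 44.3 CPM in Col-0 and 38.9 to 58.0 CPM in dxo1-2, and 4 of the 16 were tested with 0 called by edgeR. Their part in the shift was not tested.

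For S12 the shift ran toward the gene that already led. AT1G15930 supplied 69.9%, 67.6%, 72.2% and 68.3% of the S12 counts in Col-0 and 85.4%, 83.4%, 82.7% and 81.6% in dxo1-2. The groups were apart by 13.8 points on average (exact permutation test, p = 0.0286, adjusted p 0.0444). Its partner AT2G32060 rose by 1.04 (SE 0.24, edgeR adjusted p 0.00239), from 59.1, 96.0, 49.7 and 99.1 CPM to 105, 173, 166 and 182 CPM. AT2G32060 shares 133 bases with the neighbouring gene AT2G32050 on the same strand, so some of their reads may not be told apart. In the truncated lines AT1G15930 supplied 80.6% to 86.2%. Its share was 69.9% to 73.4% in the full-length active line, which overlaps Col-0. In the full-length substituted line it was 73.2% to 77.5%, above every Col-0 library and below every dxo1-2 library.

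For S20 the lesser gene gained. AT5G62300 supplied 66.3%, 67.0%, 62.9% and 62.2% of the counts on the listed S20 genes in Col-0. In dxo1-2 it supplied 51.5%, 55.4%, 53.2% and 55.8%, a difference of -10.7 points with no overlap (exact permutation test, p = 0.0286, adjusted p 0.0444). AT3G45030, the paralog with the 7 site II motifs, went from 62.4, 66.5, 56.6 and 86.0 CPM to 181, 228, 213 and 236 CPM. AT5G62300 rose as well, by 1.03 (SE 0.19, edgeR adjusted p 1.72e-04). The S20 paralogs share a run of 26 bases near the 3' end, so some of their reads may not be told apart.

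S6 had a shift of like size that did not pass. AT4G31700 supplied 64.7%, 71.4%, 51.8% and 63.3% in Col-0 and 67.9%, 75.6%, 77.6% and 80.3% in dxo1-2. The groups overlapped, with a difference of 12.5 points (exact permutation test, p = 0.0571, adjusted p 0.0800). AT4G31700 rose by 1.47 (SE 0.19, edgeR adjusted p 1.45e-06).

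**Figure D3:**
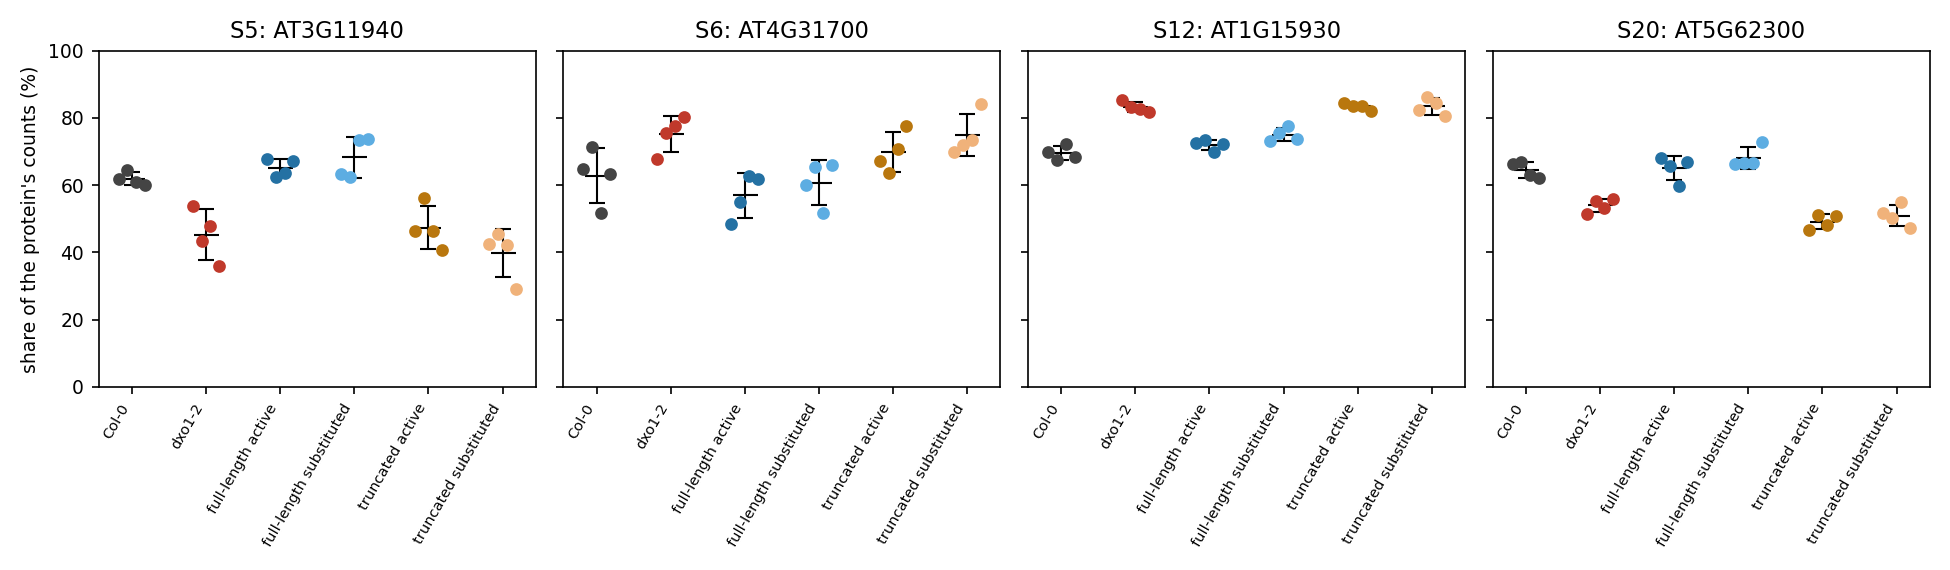
Share of the counts on a protein's tested listed genes that its leading paralog supplied, in percent. The 4 proteins are those whose share differed most between dxo1-2 and Col-0. Points are libraries and bars the mean and 1 SD (n = 4); for S5, S12 and S20 dxo1-2 does not overlap Col-0, and for S6 it does.

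Changes were also summed by protein, over its listed genes only. S25, S26, S27, S28 and S29 have 1 listed gene each, and some proteins have further genes outside the list that were not summed. The log2 ratio of mean CPM in dxo1-2 to that in Col-0 had a median of 1.16 over the 29 proteins and an SD of 0.31. The same ratio taken for each of the 57 genes had an SD of 0.40. The lowest protein was Sa with 0.34, and the highest was S12 with 1.91. The number of values differs between these SDs and no test was made of them. Genes with a site II motif had a median log2 fold change of 1.22 (38 genes, 0.53 to 2.18) and those without one 1.08 (19 genes, 0.34 to 2.63). Genes with a telo box had a median of 0.95 (8 genes, 0.34 to 1.87) and those without one 1.24 (49 genes, 0.55 to 2.63). The ranges overlap for both motifs, and the difference was not tested.

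Small-subunit genes were lower in the lines with full-length DXO1 than in the mutant. In the full-length active line 55 of 57 were lower than in dxo1-2, where 30.6% of all genes tested were called and 18.5% as lower. The median log2 fold change was -1.45, with a range from -2.60 to -0.59. All 4 libraries of the line were below all 4 of the mutant for 55 genes, as for 18.9% of all genes tested. The summed share was 0.561%, 0.675%, 0.644% and 0.678%, below every mutant library (exact permutation test, p = 0.0286, adjusted p 0.0531). AT5G10360 (S6) and AT5G39850 (S9) were not called.

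AT1G15930 (S12) had the furthest fall in that line, to 120, 136, 130 and 123 CPM. It fell by 2.60 on the log2 scale (SE 0.18, edgeR adjusted p 1.05e-10). AT1G58380 (S2) dropped by 2.18 and AT2G09990 (S16) by 2.17. At the other end AT3G11940 (S5) fell by 0.59 (SE 0.17, edgeR adjusted p 0.0118), from 231, 196, 223 and 142 CPM to 129, 130, 131 and 139 CPM. That call was lost with at least 10 counts required in every library (adjusted p 0.0521) and with the trend on exon length removed (adjusted p 0.285).

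The line with the catalytic substitutions was lower as well. In the full-length substituted line 51 of 57 genes were lower than in dxo1-2, where 25.5% of all genes tested were called and 15.1% as lower, and the median log2 fold change was -1.18. All libraries of the line were below all of the mutant for 45 genes, as for 13.2% of all genes tested. Its summed share was 0.694%, 0.683%, 0.619% and 0.746%, below every mutant library (exact permutation test, p = 0.0286, adjusted p 0.0531). The furthest falls were those of AT5G61170 (S19) by 1.97, AT1G15930 by 1.91 and AT3G02080 (S19) by 1.91. AT1G07770 (S15a) had -0.32, AT2G36160 (S14) -0.42 and AT3G10610 (S17) -0.43, and these 3 were not called. The other genes not called were AT3G11940, AT5G39850 and AT4G09800. The comparisons of both full-length lines share the dxo1-2 libraries.

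In the lines labelled as carrying truncated DXO1, whose DXO1 counts overlapped those of the mutant, these genes were near the mutant level. Against dxo1-2, 1 of 57 genes was called in the truncated active line, where 3.03% of all genes tested were called and 2.32% as lower, and the median log2 fold change was -0.20. With the dependence of log2 CPM on exon length removed, that median turned to 0.12. In the truncated substituted line 0 of 57 were called by edgeR and 0 by DESeq2, 1 gene had an unadjusted p under 0.05, and 0.795% of all genes tested were called. Its median was 0.10, with a range from -0.27 to 0.46. Summed shares were 1.62%, 1.63%, 1.75% and 1.76% in the truncated active line and 1.58%, 1.69%, 1.78% and 1.98% in the truncated substituted line, and both overlapped the mutant (exact permutation test, p = 0.829 and 0.629).

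The same held when lines with the same catalytic state were set side by side. Between the truncated and the full-length active line 55 of 57 genes were higher in the truncated line, against 17.4% of all genes tested called higher and 29.9% called in all, with a median of 1.26. Between the substituted lines 52 of 57 were higher in the truncated line, against 17.6% called higher and 30.2% in all, with a median of 1.28. These pairs share no library. In both pairs the lines differ in DXO1 count as well as in the label (4.45 against 12.1 CPM and 5.14 against 18.4 CPM), so truncation, DXO1 transcript level and line cannot be told apart. The highest values were 2.33 for AT1G15930 (S12) and 1.95 for AT4G31700 (S6) in the active pair after AT1G58380 (2.31), and 2.13 for AT5G61170 (S19), 2.05 for AT4G31700 and 2.04 for AT2G37270 (S5) in the substituted pair. AT1G07770 (S15a) had the lowest value in both, 0.44 and 0.25, and was called in neither.

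Compared with Col-0, 48 of 57 genes were higher in the truncated active line (29.2% of all genes called, 16.8% as higher; median 1.03) and 53 of 57 in the truncated substituted line (28.3% called, 17.6% as higher; median 1.26). For the full-length active line edgeR called 0 of 57 genes against Col-0 and DESeq2 called 0, where 1.03% of all genes tested were called. In that comparison 13 genes had an unadjusted p under 0.05, all lower than Col-0, and the median was -0.30. A fit of only those 2 groups called 9. The full-length substituted line had 1 gene called against Col-0, where 5.36% of all genes tested were called and 2.18% as lower, with a median of -0.03 (0.04, 0.05 and 0.07 without Col-0 replicate 2, Col-0 replicate 4 and full-length substituted replicate 3). That gene was AT3G04840 (S3a, in the platform), with 165, 200, 133 and 179 CPM in Col-0 and 126, 110, 132 and 115 CPM in the line. It fell by 0.49 (SE 0.14, edgeR adjusted p 0.0346), and leaving out any library but replicate 3 of either group ended the call (adjusted p 0.0637 to 0.150), as did a fit of only these groups (0.149) and no filter on low counts (0.111).

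**Figure D4:**
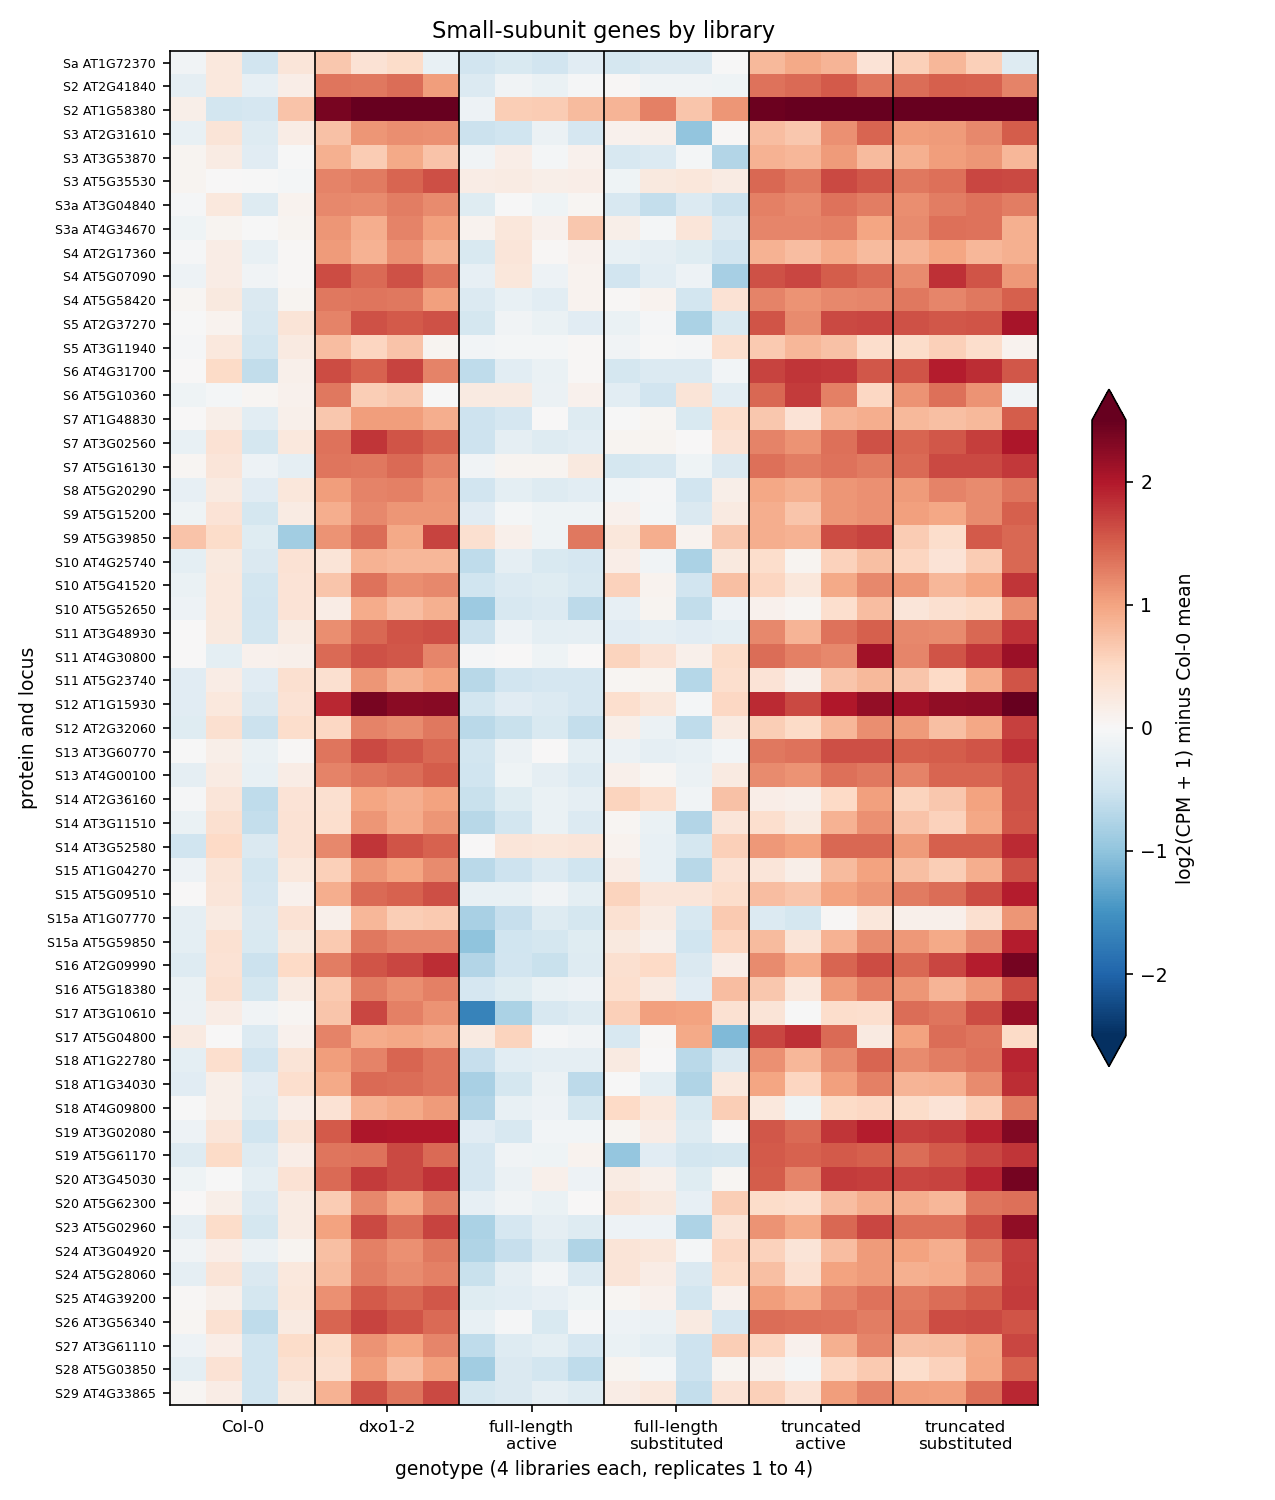
CPM of the 57 tested genes by library, as log2(CPM + 1) minus the mean of the Col-0 libraries, with colours limited at 2.5 in either direction. Columns are libraries by genotype and rows are genes by protein; dxo1-2 and both truncated lines are red in nearly every row, and Col-0 and both full-length lines are near white or blue.

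Libraries of a group differed from each other in a shared way. Col-0 replicate 3 had the lowest CPM of its group for 43 of 57 genes, dxo1-2 replicate 1 for 41, full-length active replicate 1 for 49 and truncated active replicate 2 for 44. Truncated substituted replicate 4 had the highest of its group for 43. A few genes went the other way in that library. AT1G72370 (Sa) had 260, 309, 260 and 137 CPM and AT5G10360 (S6) had 178, 212, 179 and 76.8 CPM in the truncated substituted line, with replicate 4 lowest for both. In dxo1-2, replicate 4 was also the lowest for AT1G72370, AT5G10360, AT4G31700 and AT3G11940.

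A gene of S17 was higher in the substituted than in the active line, both for full-length and for truncated DXO1. S17 sits in the head, and AT3G10610 had 12.3, 15.9, 12.9 and 14.3 CPM in Col-0 and 23, 46.0, 34.5 and 31.3 CPM in dxo1-2. It had 3.66, 7.60, 10.2 and 10.9 CPM in the full-length active line and 21.3, 29.2, 28.8 and 18.3 CPM in the full-length substituted line. The substituted line was higher in every library, by 1.61 on the log2 scale (SE 0.28, edgeR adjusted p 7.41e-04). Between the truncated lines, AT3G10610 had 17.5, 13.6, 19.1 and 18.7 CPM in the active line and 37.8, 36.3, 45.0 and 65.6 CPM in the substituted line. These values did not overlap either, and the log2 fold change was 1.42 (SE 0.25, edgeR adjusted p 0.00329). The interaction of substitution and truncation for AT3G10610 was 0.19 (edgeR adjusted p 0.905).

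The truncated active line also had less AT3G10610 than dxo1-2, by -0.96 (SE 0.26, edgeR adjusted p 0.0400), which was the 1 gene called there. Leaving out any library but truncated active replicate 4 or dxo1-2 replicate 1 ended that call, with adjusted p from 0.0725 to 0.193, as did removal of the length trend (0.143). In a fit of only the truncated lines the adjusted p of the difference between them was 0.0652, while the full-length difference was called in every setting in which the gene was tested. The other S17 gene, AT5G04800, had 17.5, 22.5, 14.7 and 13.9 CPM in the full-length active line and 11.1, 15.2, 29.6 and 6.41 in the full-length substituted line, which overlap. AT3G10610 shares 25 bases with the neighbouring gene AT3G10620 on the same strand, and AT5G04800 shares 165 bases with AT5G04790 on the opposite strand. DXO1 itself was at 10.9 to 13.4 CPM in the full-length active and at 15.9 to 21.6 CPM in the full-length substituted line. With 1 line for each construct, the substitution, the DXO1 transcript level and the line cannot be told apart there. Between the truncated lines the DXO1 values overlapped, and the substitution and the line cannot be told apart.

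Across the 57 genes, 5 were higher in the full-length substituted than in the full-length active line (6.28% of all genes tested called, 3.79% as higher). Besides AT3G10610 they were AT3G04920 (S24, in the body) with 0.87, AT1G07770 (S15a) with 0.78, AT1G15930 (S12) with 0.69 and AT5G09510 (S15) with 0.59. Without full-length substituted replicate 3, 13 were higher and 3 lower. Without any other 1 library of these lines 2 or 3 were higher and 0 lower. Between the truncated lines 2 genes were higher with the substitutions (2.11% of all genes called, 1.45% as higher), namely AT3G10610 and AT5G09510. AT5G09510 had 178, 167, 209 and 223 CPM in the truncated active and 254, 273, 323 and 404 CPM in the truncated substituted line, which do not overlap. Its log2 fold change was 0.69 (SE 0.17, edgeR adjusted p 0.0314), and the adjusted p was 0.0522 to 0.159 without 1 of truncated active replicates 1, 2 and 3 or truncated substituted replicates 3 and 4, and 0.206 in a fit of only these lines. The interaction was called for 0 of 57 genes by edgeR, where 1.44% of all genes tested were called. At an unadjusted p under 0.05 it was 2 of 57, beside 1628 of the 13592 genes tested, a smaller share among the 57. No other tool was run on it.

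Counts of large-subunit genes stood higher relative to those of small-subunit genes in the mutant. Of 108 tested genes of the large (60S) subunit, 100 were higher in dxo1-2 than in Col-0, with a median log2 fold change of 1.42. Another 39 small-subunit loci outside the list had 30 tested genes, of which 22 were higher, with a median of 1.10. Counts on large-subunit genes divided by counts on the 60 genes gave 1.52, 1.44, 1.54 and 1.49 in Col-0 and 1.83, 1.82, 1.80 and 1.82 in dxo1-2. The ratios did not overlap and differed by 0.320 (exact permutation test, p = 0.0286, adjusted over 13 comparisons 0.0531). This ratio was chosen after seeing the data.

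The ratio followed the same division of genotypes. It was 1.60, 1.55, 1.50 and 1.56 in the full-length active line and 1.51, 1.53, 1.65 and 1.49 in the full-length substituted line, and these overlap Col-0. The truncated active line had 1.89, 1.88, 1.82 and 1.76 and the truncated substituted line 1.80, 1.84, 1.88 and 1.76, and these overlap dxo1-2. Every library of dxo1-2 and of the truncated lines was above every library of the other 3 genotypes.

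**Figure D5:**
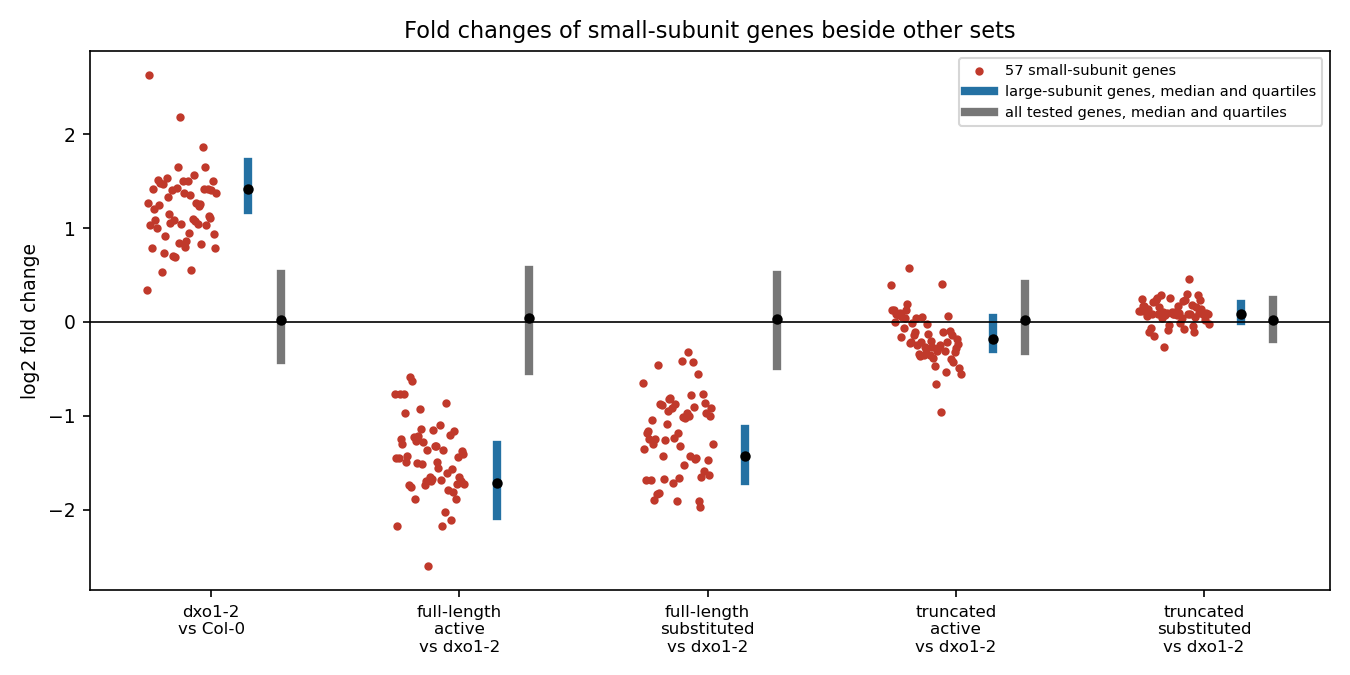
Log2 fold changes of the 57 small-subunit genes (red points) in 5 comparisons, beside the median (black) and quartiles (bars) of 108 large-subunit genes (blue) and of all 13592 genes tested (grey). In dxo1-2 and in both full-length lines the small-subunit genes lie on the same side as the large-subunit bar, and in the truncated lines they lie around 0.

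Gene length moved with these changes. The median exon length was 1008 bases for the 57 genes, 976.5 for the large-subunit genes and 1734 for all genes tested. Among 2887 tested genes of like length (783 to 1305 bases) that encode no cytosolic ribosomal protein, 24.8% were higher in dxo1-2 and the median log2 fold change was 0.27. With the dependence of log2 CPM on exon length removed in each library, 49 of 57 small-subunit genes were higher, with a median of 0.90, and 96 of 108 large-subunit genes were higher, with a median of 1.09. In that fit 25.1% of all genes tested were called, 13.6% as higher, with a median of -0.01. In the full-length active line against dxo1-2 the medians then were -1.04 and -1.23. The leaf markers summed to 62272 to 78225 CPM in Col-0 and 47383 to 53048 in dxo1-2. Of the 6 leaf genes, edgeR called 3 lower and 1 higher in dxo1-2, beside 7.93% and 14.7% of all genes tested. The part of the leaf genes in these results was not tested.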

How the data were processed

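Per the labels' protocols, whole-plant RNA was primed at the poly(A) tail with barcoded oligo(dT), pooled as cDNA, tagmented and read as pairs in which 1 read carried the barcode and molecular identifier. The submitters' processing notes name STAR 2.7.8a, DESeq2 and TAIR10, with no role or order. The tables deposited by the authors hold raw counts for each gene, in whole numbers, and were not scaled. The use of strand, the collapsing of molecular identifiers and the treatment of reads matching several genes are not given in the sources used here, so intervals and floors cover counting error only. Of the 60 loci, 17 overlap another annotated gene, and for 11 of them that gene lies on the opposite strand. Reads of overlapping genes may not be told apart.

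Counts of 24 libraries (6 groups taken from the titles) entered 1 fit with edgeR 4.0.16 (R 4.3.3), TMM scaling and the filterByExpr filter, which kept 13592 of 37184 loci, 57 of them among the 60. The quasi-likelihood test gave 13 comparisons, and a Benjamini-Hochberg adjusted p under 0.05 made a call. The SE is the log2 fold change divided by the square root of the F statistic. CPM is scaled by the TMM-adjusted library size. For shares and ratios per library, a two-sided exact permutation test was used. Exon length, products and upstream windows come from RefSeq's annotation of TAIR10.1, since the count tables hold no coordinates. Tools were tested on simulated counts for dxo1-2 against Col-0: of 200 genes changed by a log2 of 1.5 among 13143, 86.0% were recovered, and 4.97% of calls were unchanged genes.

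All 36 pairs of libraries within groups differed beyond sampling noise (chi-square per degree of freedom 1.91 or more), so none was merged as a library deposited more than once; this does not show that they came from separate plants. Genes named are the 10 highest and 10 lowest changes of dxo1-2 against Col-0, the 3 highest and 3 lowest elsewhere, the 5 highest means, the paralogs of the 4 proteins with the largest shift of share, and the 3 untested genes; genes outside this rule were chosen after their values were seen. The loci and the lists of marker genes (leaf, dividing cells, seed, root hair and pollen) and of ribosomal genes were chosen with earlier results of these data known.

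Other settings were DESeq2 1.42.0, size factors by median of ratios, other filters, a fit of 2 groups alone, a block for the replicate number, no organelle genes, removal of the trend on exon length (lowess, span 0.3), the main axis of spread within groups as a covariate, and leaving out each library.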

Additional observations from a re-analysis of the deposited data

Results flagged for a closer look

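In 10 of 198 sets of 4 libraries examined for the named genes and shares, 1 library stood far from the other 3 by Dixon's criterion of 0.829, where chance flags about 1 in 20.

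In dxo1-2, replicate 1 was low for AT3G02080 (S19), with 416 CPM against 575 to 587 in the other libraries, and for AT4G25740 (S10), with 133 CPM against 191 to 196. In the full-length active line, replicate 1 was low for AT3G52580 (S14), with 23.2 CPM against 28.3 to 28.8.

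Replicate 4 of the full-length substituted line was high for AT3G02560 (S7), with 91.6 CPM against 72.2 to 75.1. The same library was high for AT3G11940 (S5), with 181 CPM against 128 to 135, and for AT1G72370 (Sa), with 172 CPM against 127 to 134. AT5G62300 supplied 73.0% of the counts on the listed S20 genes in it, against 66.4% to 66.7% in the others.

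Replicate 4 of the truncated lines was high for 3 genes. AT4G30800 (S11) had 19.3 CPM against 9.91 to 11.5 in the truncated active line. In the truncated substituted line AT5G52650 (S10) had 335 CPM against 184 to 209, and AT2G37270 (S5) had 349 CPM against 245 to 252.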

How the results depend on the processing

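Depth limits the low genes, such as AT4G30800 and AT5G39850, and the labels name 1 line for each construct. The libraries share only a number: the labels tie replicate numbers to no plant or batch, and correlations between libraries of other groups lay between -0.536 and 0.613 for the same number (median 0.0342, 23 of 60 above 0.1) and between -0.673 and 0.714 for other numbers (median -0.0195, 57 of 180 above 0.1), with 10 of 24 libraries closest to one of their own number.

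For dxo1-2 against Col-0 the count of genes called was 49 to 56 in the settings other than leaving out a library and 45 to 53 without 1 library, against 54; with the replicate block it was 56. Without 1 library it was 54 to 55 for the full-length active and 47 to 52 for the full-length substituted line against dxo1-2, 40 to 49 and 50 to 53 for the truncated active and truncated substituted lines against Col-0, and 53 to 55 and 51 to 53 for the truncated against the full-length active and substituted lines. It was 0 throughout for the truncated substituted line against dxo1-2 and for the full-length active line against Col-0.

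Small counts moved more. For the truncated active line against dxo1-2 (1 called) it was 0 with at least 10 counts in every library, with the length trend removed and in a fit of 2 groups, 2 with the replicate block, 20 with the axis covariate (1 of them higher), and 0 to 2 without 1 library. For the full-length active line against Col-0 (0 called) it was 1 with at least 10 counts, 1 with the length trend removed, 23 with the axis covariate and 9 in a fit of 2 groups. For the full-length substituted line against Col-0, 1 was called, as lower. With median-of-ratios size factors or with DESeq2, 1 was higher and 1 lower. With the replicate block 1 was higher and 2 lower, and with at least 10 counts 2 were lower. With the length trend removed 2 were higher and 1 lower, a change of direction, and with the axis covariate 4 were higher and 5 lower. The count was 0 with no filter and in a fit of 2 groups, and 0 to 2 without 1 library. Without full-length substituted replicate 3, 1 was higher and 1 lower, and the 1 gene called without Col-0 replicate 4 was higher. For the full-length substituted against the full-length active line (5 called) it was 13 with DESeq2, 10 with at least 10 counts, 8 with the replicate block, 9 with the length trend removed, 29 with the axis covariate and 2 to 16 without 1 library. For the truncated substituted against the truncated active line (2 called) it was 1 with no filter, 1 with at least 10 counts, 25 with the axis covariate, 0 in a fit of 2 groups and 1 to 3 without 1 library. The cause was not tested.

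The difference in summed share from dxo1-2 ran from -0.0350 to 0.0213 points (truncated active; reversed values 0.0141, 0.0122, 3.18e-04 and 0.0213) and from -0.0170 to 0.114 (truncated substituted; reversed value -0.0170) without 1 library. The difference in the large to small ratio ran from -0.00115 to 0.0426 and from -0.0199 to 0.0191. For the truncated substituted line it was -7.19e-04, and 0.00342 with both small-subunit lists, 0.00400 without the 5 highest genes and 0.00640 as a difference of mean log2 CPM; these settings were chosen after seeing the data. Proteins with no overlap of shares numbered 12 to 15 and 15 to 16 without 1 library. Leaving out a library cannot lower this count, so these ranges do not test how stable it is. Of the log2 fold changes of named genes recomputed, 1554 were on the same side of the threshold, 67 were no longer called, 55 were newly called and 0 changed direction while called.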

Other observations

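Seed storage protein genes, listed as 8 markers, varied between libraries of a genotype and between genotypes. They summed to 120 to 211 CPM in Col-0, 87.4 to 322 in dxo1-2, 3.75 to 13.3 in the full-length active line, 27.1 to 145 in the full-length substituted line, 55.5 to 134 in the truncated active line and 6.84 to 37.1 in the truncated substituted line. The 2 pollen markers summed to at most 0.846 CPM in any library.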
